A study of Mus musculus with 6 samples.

Results

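The glucose transporters GLUT1 (Slc2a1) and GLUT4 (Slc2a4) and 8 genes of GLUT4 vesicle traffic were examined in 3T3-L1 adipocytes that overexpressed the LIM-only transcriptional cofactor LMO3. The 10 genes were taken by name, for their known roles, and all 10 were found among the 24421 gene symbols counted and among the 12766 genes tested. 3T3-L1 is a mouse fibroblast line that turns into adipocytes in culture. Its strain is entered as C57BL/6 in the labels. Cells of both groups were differentiated in 10% CS with 870 nM insulin, 5 µM TZD, 1 µM Dex and 500 µM IBMX, and Dex and IBMX were left out from day 3. On day 7 they received an adenovirus carrying LacZ (AdLacZ, the control) or Lmo3 (AdLmo3) at 100 pfu per cell, and RNA was taken 72 h later from 3 separate infections per group. Both groups thus carried an adenovirus and stayed in insulin and TZD, no group without virus or without insulin was analysed here, and 1 cell line stood for adipocytes. The p-values measure the spread between these infections.

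Fat and muscle cells keep most of their GLUT4 inside the cell, in storage vesicles that also carry the insulin-regulated aminopeptidase (Lnpep), sortilin (Sort1), TUSC5 and the v-SNARE VAMP2. Insulin, acting through Akt, switches off the Rab GTPase-activating proteins AS160 (Tbc1d4) and TBC1D1, and the vesicles then move to the plasma membrane and fuse there with the help of syntaxin 4 (Stx4a). TC10 (Rhoq), a small GTPase of lipid rafts, has been placed on a second route from the insulin receptor to these vesicles, and GLUT1 carries glucose in the basal state. RNA levels do not show protein amount, vesicle position or glucose uptake.

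The libraries held 28035639 to 38332335 counts, so that 3 counts, taken as the lowest level that could be told from 0, stood for 0.0768 to 0.111 CPM, a gene's counts per 1000000 counts of the TMM-scaled library; such floors cover counting error only. Counts of Lmo3 were 0 in all 6 libraries. The virus carried a codon-optimized Lmo3 sequence, so this gene could not check the labels. Adipocyte markers were abundant in both groups. Of 12 such markers, 10 rose with AdLmo3 by edgeR's quasi-likelihood test with Benjamini-Hochberg adjustment, where 2.71% of all tested genes were called higher. These 10 had log2 fold changes of 0.48 to 1.44, and Lpl (0.23, adjusted p = 0.294) and Cd36 (0.10, adjusted p = 0.794) did not pass. The summed level of the 12 was 22971 to 26159 CPM with AdLacZ and 31418 to 38092 CPM with AdLmo3. Of 12 preadipocyte and fibroblast markers 0 were called by edgeR, DESeq2 or limma voom. In edgeR 0 had an unadjusted p under 0.05, against 20.6% of all tested genes, and their sums overlapped, at 21869 to 25907 and 20585 to 28887 CPM. Markers of skeletal muscle, another tissue rich in GLUT4, summed to 6.73 to 10.9 CPM with AdLacZ and 2.23 to 7.67 CPM with AdLmo3 with Myod1 at 0 throughout, and macrophage markers to 4.61 to 5.86 and 3.18 to 5.21 CPM. The part of the higher adipocyte marker level in the results that follow was not tested. In bulk RNA more cells of a type and more RNA per cell cannot be told apart.

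Neither transporter nor any other member passed the test between AdLmo3 and AdLacZ. Sort1, Lnpep and Tbc1d4 had the largest fitted differences, all higher with AdLmo3 by 1.21 to 1.43 fold, while Slc2a4 stood at nearly the same level in both groups and Slc2a1 varied more among the control libraries than between the groups. By edgeR's quasi-likelihood test 0 of the 10 members were called at an adjusted p of 0.05, against 2.71% of all tested genes called higher and 1.57% called lower. At an unadjusted p under 0.05 there were 3 (Tbc1d4, Sort1 and Lnpep, all higher), where 11.1% of all tested genes were past that limit in this direction. DESeq2 called the same 3 genes, with adjusted p-values of 0.0217, 0.00148 and 0.0109, against 5.26% of all tested genes called higher by it, and limma voom called 0 members. The 2 groups did not overlap for 4 members, those 3 and Rhoq, beside 26.5% of all tested genes. Fitted changes were above 0 for 7 members and below 0 for 3, and their median was 0.08 on the log2 scale beside 0.00 over all tested genes.

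**Figure D1:**
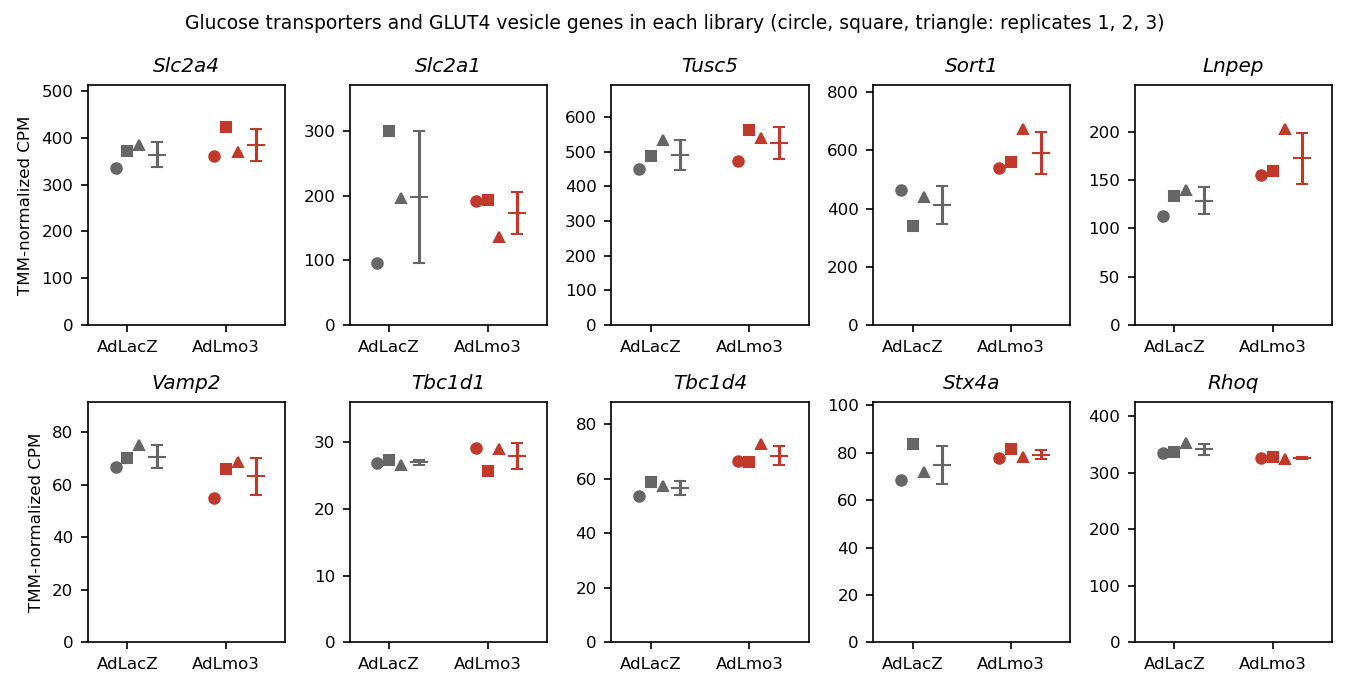
TMM-normalized CPM (y axis, from 0) of each of the 10 members in the 3 AdLacZ (grey) and 3 AdLmo3 (red) libraries, with the group mean and SD (n = 3) beside the points. All AdLmo3 points lie above all AdLacZ points for Sort1, Lnpep and Tbc1d4 and below them for Rhoq; the AdLacZ points of Slc2a1 span 95.8 to 299.8 CPM.

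**Figure D2:**
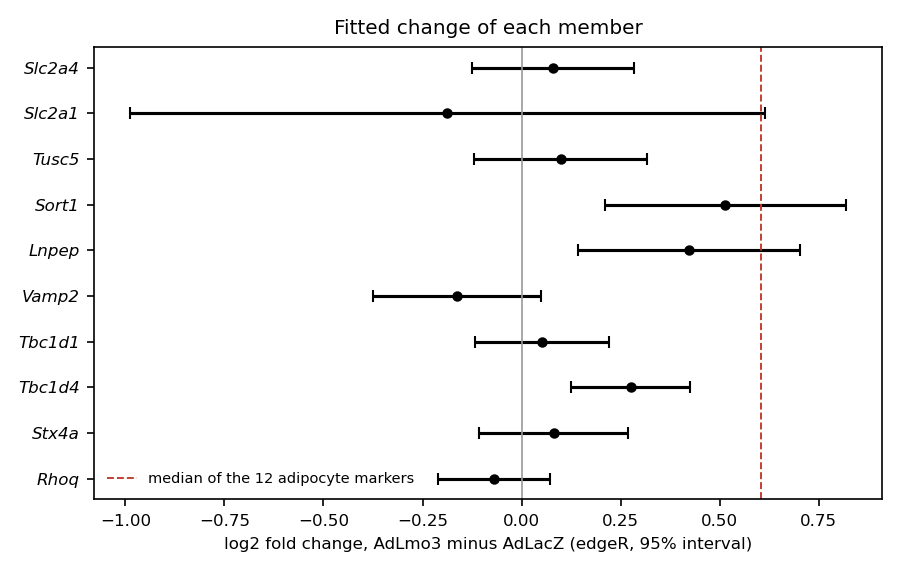
Fitted log2 fold change (x axis, AdLmo3 minus AdLacZ) of each member by edgeR, with its 95% interval (bars). The dashed line marks the median of the 12 adipocyte markers, 0.60. The intervals of Sort1, Lnpep and Tbc1d4 lie above 0 before adjustment for multiple tests, and that of Slc2a1 runs from -0.99 to 0.61.

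Slc2a4 encodes GLUT4, the insulin-responsive transporter of fat and muscle (GRCm38 chr11:69942539-69948188, minus strand). Its TMM-normalized level was 335, 371 and 386 CPM in AdLacZ libraries 1, 2 and 3, and 361, 424 and 369 CPM in AdLmo3 libraries 1, 2 and 3. The lowest library was a control and the highest an AdLmo3 library, and the groups overlapped. The means were 364 ± 26.0 and 385 ± 34.1 CPM (SD, n = 3), a log2 fold change of 0.08 (SE 0.089, edgeR adjusted p = 0.675). Its 95% interval ran from -0.13 to 0.28, that is from 0.917 to 1.22 fold, so a larger increase of Slc2a4 lay outside it. The 10 adipocyte markers that rose all had fitted changes above that upper bound, but they were picked by being called higher. The markers that did not pass, Lpl (0.23) and Cd36 (0.10), lay within the interval. The difference between the markers and Slc2a4 was not tested.

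Slc2a1 encodes GLUT1, the transporter of basal glucose uptake in most cells (GRCm38 chr4:119108711-119137983, plus strand). The control libraries read 95.8, 299.8 and 197 CPM and the AdLmo3 libraries 191, 193 and 136 CPM. Control library 1 was the lowest of the 6 and control library 2 the highest, so all AdLmo3 values fell between 2 controls. The group means of 197 ± 102 and 173 ± 32.5 CPM (SD, n = 3) gave a log2 fold change of -0.19 (SE 0.349, edgeR adjusted p = 0.816) with a 95% interval of -0.99 to 0.61. Without AdLacZ replicate 2 the fitted value was 0.25 (adjusted p = 0.691), so the sign of the difference rested on that library. The 3.13-fold span among the controls was far wider than the 1.42-fold span among the AdLmo3 libraries, although the counts behind it, 3407 to 11711 per library, were high.

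The within-group SD of Slc2a1, 0.62 on the scale of log2(CPM + 0.5), exceeded that of 98.9% of all tested genes, whose median was 0.12. Slc2a4 lay close to that median at 0.12, and Rhoq was among the steadiest genes at 0.030, with 1.62% of tested genes below it. Slc2a1 was not alone in its pattern. Among 10108 genes with a mean of at least 5 CPM, those most like it over the 6 libraries by Pearson's r of log2(CPM + 0.5) were Ampd3 (r = 0.990), Eno2 (0.989), P4ha2 (0.987), Eno1b (0.985) and Foxf2 (0.983). Eno2, a glycolytic enolase, read 6.32, 66.2 and 33.5 CPM in the controls and 31.0, 37.3 and 16.1 CPM with AdLmo3, the same order of control libraries as Slc2a1. These values are a description of 6 libraries, and 80.6% of the 75-base stretches of Eno1b also occur in other genes. Of all tested genes, 3.72% were lowest in control library 1 and highest in control library 2. No label divided the control libraries into batches.

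**Figure D3:**
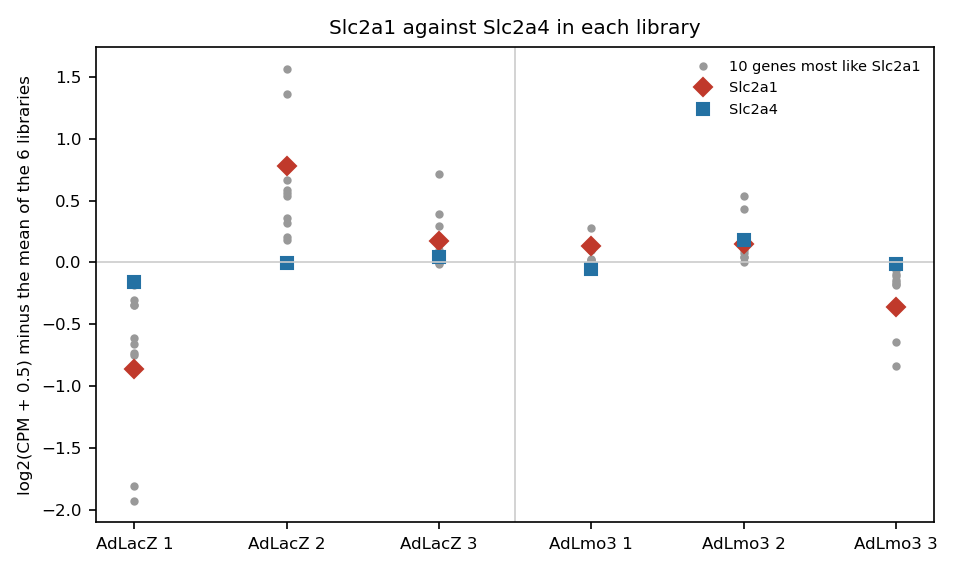
log2(CPM + 0.5) minus the mean of the 6 libraries (y axis) in each library (x axis) for Slc2a1 (red diamonds), Slc2a4 (blue squares) and the 10 genes most like Slc2a1 (grey). Slc2a1 and the grey points are low in AdLacZ 1 and high in AdLacZ 2, while Slc2a4 stays near 0 in all 6 libraries.

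For 6 members (Slc2a1, Tbc1d1, Tbc1d4, Lnpep, Stx4a and Rhoq) RefSeq promoter sequence was at hand, and the 250 bases before the start were searched on both strands. Sequences are shown for Slc2a1, the most variable member, for Rhoq, the steadiest, and for Tbc1d4, the member with the lowest adjusted p. Capitals mark ACGTG, a form of the core of the hypoxia response element, in the first 2 (in Rhoq on the opposite strand). Other forms of that core were not searched. In the sequence of Tbc1d4 the capitals mark GGGCGG, the GC box. Positions are counted back from the RefSeq start on GRCm38.p6.
Slc2a1, chr4:119108615-119108714, plus strand, -130 to -31: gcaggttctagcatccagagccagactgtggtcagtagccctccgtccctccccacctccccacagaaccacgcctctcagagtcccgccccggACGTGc
Rhoq, chr17:86962861-86962960, plus strand, -250 to -151: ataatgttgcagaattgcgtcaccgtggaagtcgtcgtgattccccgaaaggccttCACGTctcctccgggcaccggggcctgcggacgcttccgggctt
Tbc1d4, chr14:101609192-101609291, minus strand, -100 to -1: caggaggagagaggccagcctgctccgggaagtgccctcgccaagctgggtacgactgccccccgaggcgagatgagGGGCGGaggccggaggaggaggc

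ACGTG stood at -36 in Slc2a1 and at -194 in Rhoq, so the most and the least variable member both held it, and it occurs in 16.6% of all 32851 RefSeq promoters. GGGCGG occurs in 32.7% of them and was found before Slc2a1, Tbc1d4, Lnpep, Stx4a and 1 of the 2 starts of Tbc1d1. The bases that follow this start of Tbc1d1 were not found in a GENCODE transcript of the gene. The windows of Lnpep, Stx4a and Tbc1d1 lay wholly within the GENCODE bounds of these genes. CCAAT, present in 33.8%, was found in Stx4a, and neither TATAAA (12.4%) nor AGGTCA (14.0%) was found in any of the 6. The only matches that overlapped were 2 of GGGCGG in Stx4a, which share a base. These matches describe letters and not binding.

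The balance of the 2 transporters was compared within each library as the log2 ratio of Slc2a4 to Slc2a1 counts, which needs no scaling between libraries. It was 1.81, 0.31 and 0.97 in the controls and 0.92, 1.13 and 1.44 with AdLmo3. The control values enclosed the AdLmo3 values. The difference of 0.14 did not pass an exact permutation test (two-sided p = 0.9, n = 3 per group, smallest possible p = 0.1). Without AdLacZ replicate 2 it was -0.22, and without AdLmo3 replicate 3 it was -0.0042, so its direction rested on these libraries.

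Among the other hexose transporters, 4 of 12 had enough reads to be tested and 0 were called by edgeR, DESeq2 or limma voom. At an unadjusted p under 0.05 in edgeR there was 1 (25.0%, against 20.6% of all tested genes). The highest of the 4 was Slc2a8 (GLUT8, an intracellular transporter), whose fitted log2 change was 0.26 (adjusted p = 0.207). Slc2a9, which carries urate, had the lowest fitted change at -0.17 (adjusted p = 0.533). Slc2a2 and Slc2a12 were at 0 counts in all 6 libraries, below the floor of 0.0768 to 0.111 CPM. On the per-length scale, CPM divided by kilobases of exon, Slc2a4 made up 69.5, 53.7 and 63.1% of the sum over 12 Slc2a genes in the controls and 61.4, 63.5 and 66.4% with AdLmo3. Slc2a1 made up 17.1, 37.3 and 27.8% and then 28.0, 24.9 and 21.0%. Slc2a4 held the larger share in every library, and the groups overlapped for both genes.

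On the same per-length scale the members spanned a wide range, and Tusc5 and Slc2a4 led in both groups. In AdLacZ the mean levels were 149 ± 12.8 CPM per kb for Tusc5, 130 ± 9.27 for Slc2a4, 82.3 ± 2.43 for Rhoq, 60.6 ± 31.3 for Slc2a1, 59.8 ± 9.47 for Sort1, 48.6 ± 5.15 for Stx4a and 25.0 ± 1.53 for Vamp2 (SD, n = 3). Lnpep (10.7 ± 1.15), Tbc1d4 (8.47 ± 0.388) and Tbc1d1 (4.08 ± 0.0580) stood lowest. The ranges over libraries of Tusc5 and Slc2a4 overlapped, though Tusc5 was the higher in every library. The range of Slc2a1 overlapped those of Rhoq, Sort1 and Stx4a, and that of Sort1 overlapped that of Stx4a. The order within these last pairs is not set by these data. With AdLmo3 Sort1 averaged 85.5 ± 10.3 CPM per kb beside 78.4 ± 0.471 for Rhoq, whose range it overlapped, and 53.2 ± 9.98 for Slc2a1, which lay below both in every library.

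**Figure D4:**
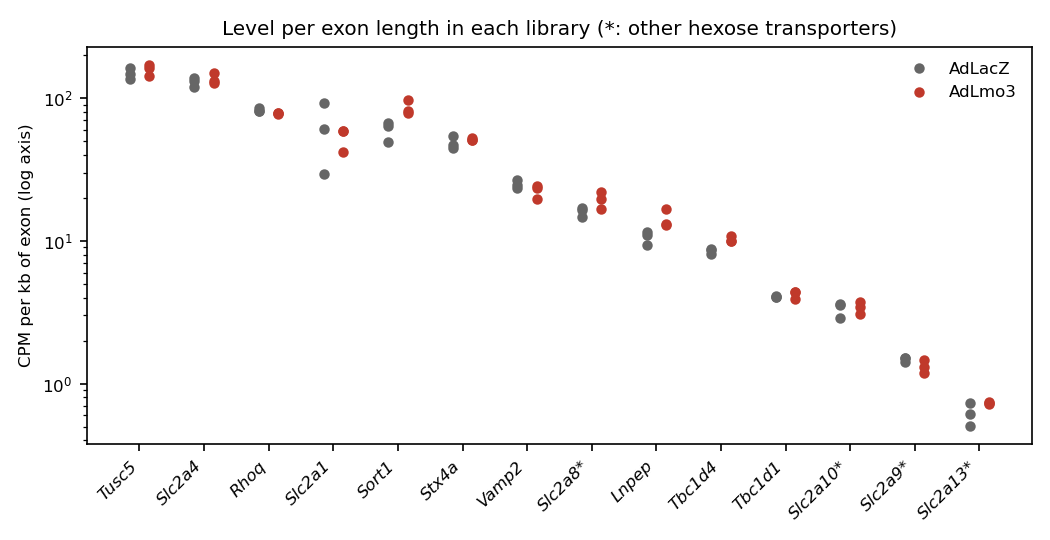
CPM per kilobase of exon (y axis, log scale) of the 10 members and of 4 other hexose transporters (starred) in each AdLacZ (grey) and AdLmo3 (red) library. Tusc5 and Slc2a4 are highest among them, and among the members the groups lie apart for Sort1, Lnpep, Tbc1d4 and, narrowly, Rhoq.

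Of the 3 genes of vesicle cargo and sorting, Sort1 and Lnpep were higher in every AdLmo3 library without passing the test, and Tusc5 overlapped between the groups. Sort1 encodes sortilin, a sorting receptor needed to form GLUT4 storage vesicles (GRCm38 chr3:108284082-108361511, plus strand). It read 462, 339 and 438 CPM in the controls and 539, 559 and 671 CPM with AdLmo3. Every AdLmo3 library was above every control. The means were 413 ± 65.4 and 590.0 ± 71.0 CPM (SD, n = 3), and the log2 fold change of 0.51 (SE 0.133, 95% interval 0.21 to 0.82) had an unadjusted p of 0.00453 and an adjusted p of 0.0731 by edgeR. It was between 0.39 and 0.60 without any 1 library, with edgeR adjusted p-values of 0.0721 to 0.190 in those fits.

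Lnpep encodes the insulin-regulated aminopeptidase, which travels with GLUT4 (GRCm38 chr17:17521410-17625050, minus strand). Its level was 113, 133 and 140 CPM in the controls and 155, 159 and 203 CPM with AdLmo3. The groups were apart, with AdLmo3 library 3 well above the other two. The log2 fold change between means of 129 ± 13.9 and 173 ± 26.4 CPM (SD, n = 3) was 0.42 (SE 0.122, 95% interval 0.14 to 0.70, edgeR adjusted p = 0.0994). Without AdLmo3 replicate 3 it was 0.29 (adjusted p = 0.184).

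Tusc5 encodes a protein of GLUT4 vesicles that is enriched in fat and supports recycling of the transporter (Trarg1 in GENCODE M21, GRCm38 chr11:76679808-76698664). It read 450.0, 488 and 535 CPM with AdLacZ and 474, 563 and 539 CPM with AdLmo3. As for Slc2a4, the lowest of the 6 was control library 1 and the highest was AdLmo3 library 2, and the groups overlapped. Its log2 fold change of 0.10 had a 95% interval of -0.12 to 0.32 (edgeR adjusted p = 0.620).

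Of the 16 tested genes among 17 other cargo, retention and sorting factors, 0 were called by edgeR and limma voom. DESeq2 called 2 (Lrp1 and Ehd2, both higher), where it called 5.26% of all tested genes higher. At an unadjusted p under 0.05 in edgeR there were 4 (25.0%, against 20.6% of all tested genes). The median fitted log2 change of the 16 was 0.05. The largest was that of Lrp1, a receptor found in the same vesicles (0.39, adjusted p = 0.158), and the lowest that of the trans-Golgi SNARE Stx16 (-0.21, adjusted p = 0.121).

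Of the 2 related Rab GTPase-activating proteins, Tbc1d4 was higher in every AdLmo3 library without passing the test, and Tbc1d1 overlapped between the groups. Tbc1d4, or AS160, is the main form in adipocytes and holds GLUT4 vesicles inside the unstimulated cell (GRCm38 chr14:101442360-101609191, minus strand). It read 53.7, 58.6 and 57.3 CPM in the controls and 66.6, 66.3 and 72.5 CPM with AdLmo3, with a clear gap between the groups. Its log2 fold change of 0.28 (SE 0.0654, 95% interval 0.13 to 0.43) between means of 56.5 ± 2.59 and 68.5 ± 3.52 CPM (SD, n = 3) had the lowest adjusted p of all members, 0.0583 by edgeR.

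Tbc1d1, the form better known from muscle (GRCm38 chr5:64156305-64351486, plus strand), read 26.9, 27.3 and 26.6 CPM with AdLacZ and 29.1, 25.7 and 29.0 CPM with AdLmo3. Its groups overlapped, and AdLmo3 held both the highest and the lowest value. The log2 fold change was 0.05 (95% interval -0.12 to 0.22, edgeR adjusted p = 0.755). Within libraries the log2 ratio of Tbc1d4 to Tbc1d1 counts was 1.00, 1.10 and 1.11 in the controls and 1.20, 1.37 and 1.32 with AdLmo3. The ratio was higher in all 3 AdLmo3 libraries, by 0.23 or 1.17 fold, and the exact permutation test gave a two-sided p of 0.1, the smallest that 3 against 3 allow. The test could therefore not reach 0.05.

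Of 14 other Rab and Ral GTPases and their regulators, 7 had fitted changes above 0 and 7 below. At an unadjusted p under 0.05 in edgeR there were 4 (28.6%, against 20.6% of all tested genes). Ralgapa2, the catalytic subunit of a complex that inactivates Ral GTPases and is an Akt target, was the only one of the 14 called by edgeR, where 2.71% of all tested genes were called higher. It rose from 243 ± 8.82 to 315 ± 24.5 CPM (SD, n = 3; log2 fold change 0.37, adjusted p = 0.0378). This call was lost in all 6 fits with 1 library left out (edgeR adjusted p of 0.0563 to 0.126). Rala itself, the GTPase that complex acts on, had the lowest fitted change of the list at -0.25 (adjusted p = 0.0659). Ralgds, a Ral activator, was fitted at 0.36 (adjusted p = 0.0771). DESeq2 also called Rala, as lower, and Ralgds, as higher. Of the 12766 tested genes it called 5.26% higher, and it called 438 genes lower.

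The genes of vesicle fusion showed small differences. Vamp2, the v-SNARE of GLUT4 vesicles (GRCm38 chr11:69088490-69092384, plus strand), read 66.8, 70.1 and 75.4 CPM with AdLacZ and 55.1, 66.0 and 68.5 CPM with AdLmo3. The highest AdLmo3 value lay among the controls. The log2 fold change was -0.16 (95% interval -0.37 to 0.05, edgeR adjusted p = 0.369).

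Stx4a, the plasma membrane SNARE that pairs with VAMP2 (GRCm38 chr7:127824294-127849019, plus strand), read 68.6, 83.7 and 72.1 CPM in the controls and 77.9, 81.4 and 78.1 CPM with AdLmo3. All AdLmo3 values fell within the control range. Its log2 fold change of 0.08 had a 95% interval of -0.11 to 0.27 (edgeR adjusted p = 0.638). The other fusion and tethering genes, which include the exocyst, gave 18 tested of 21 listed symbols, with a median of -0.03. Fitted changes were below 0 for 14 and above 0 for 4 (22.2%, beside 50.4% of all tested genes). By edgeR, DESeq2 or limma voom 0 were called, and 4 had an unadjusted p under 0.05 in edgeR (22.2%, against 20.6% of all tested genes). The 18 ran from -0.26 for Exoc6 (adjusted p = 0.173) to 0.29 for Exoc8 (adjusted p = 0.167), 2 subunits of the same tethering complex.

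Rhoq, which encodes TC10 (GRCm38 chr17:86963082-87000069, plus strand), had the tightest replicates of all members. The controls read 335, 336 and 353 CPM and the AdLmo3 libraries 326, 327 and 323 CPM. The groups did not overlap, but the gap was small. The log2 fold change of -0.07 (SE 0.0617, 95% interval -0.21 to 0.07) did not pass (edgeR adjusted p = 0.592), and a fold below 0.864 or above 1.05 lay outside its interval. Of its exon bases 7.52% overlap Pigf on the opposite strand, and such reads cannot be told apart with a kit that does not mark strand. The same holds for 4.90% of Sort1 (Gm12523) and 3.22% of Slc2a1 (Gm12868).

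Around TC10, 10 of 12 listed genes (83.3%) had fitted changes above 0, beside 50.4% of all tested genes. At an unadjusted p under 0.05 in edgeR there were 4 (33.3%, against 20.6% of all tested genes). By edgeR 1 was called, where 2.71% of all tested genes were called higher. Sh2b2, the APS adaptor that binds the insulin receptor and recruits Cbl, rose from 99.2 ± 17.0 to 142 ± 2.61 CPM (SD, n = 3; log2 fold change 0.52, edgeR adjusted p = 0.0437). This call was lost in 5 of the 6 fits with 1 library left out, all but that without AdLacZ replicate 2 (adjusted p up to 0.172), and after thinning (adjusted p = 0.0504). The next largest value was that of the ubiquitin ligase Cbl itself, at 0.36 (adjusted p = 0.167), and the lowest that of the adaptor Crk (-0.14, adjusted p = 0.298).

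Among the 6 pathway lists, that of transcription factors and cofactors known to act on Slc2a4 held the most calls. Of the 10 tested, 3 rose: Cebpa (log2 fold change 0.59, adjusted p = 0.0111), Pparg (0.48, adjusted p = 0.0316) and Nr1h3, the liver X receptor alpha (0.39, adjusted p = 0.0405), all by edgeR. Pparg and Cebpa are also among the 12 adipocyte markers. The other 7 ran from -0.10 for Mef2a to 0.21 for Ebf1, and none of them passed. Slc2a4 itself, as given above, was fitted at 0.08. Together, 74 of 88 listed pathway symbols were tested. By edgeR 5 rose (6.76% against 2.71% of all genes) and 0 fell. Of these 5, 3 were the transcription factors above, and Ralgapa2 and Sh2b2 were the only calls in the other lists. At an unadjusted p under 0.05 in either direction there were 21 (28.4% against 20.6% of all genes), and the median fitted change was 0.04. The number of calls fell to between 0 and 2 when any 1 library was left out, and Ralgapa2 and Nr1h3 were then called in none of those 6 fits. Without AdLacZ replicate 3 the count was 0.

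**Figure D5:**
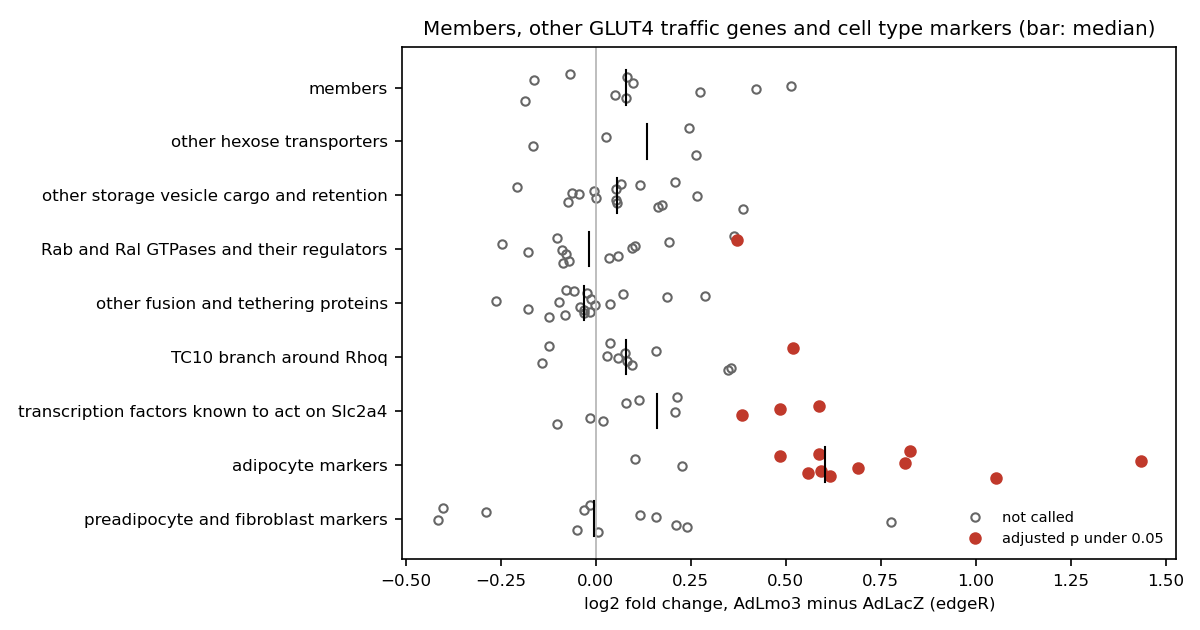
Fitted log2 fold change (x axis, AdLmo3 minus AdLacZ, edgeR) of the tested genes in each list (rows); filled red points passed an adjusted p of 0.05, open points did not, and the bar marks the median. No member is filled, 5 pathway genes are, and 10 of the 12 adipocyte markers are, including Pparg and Cebpa, which are drawn in 2 rows.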

How the data were processed

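RNA-Seq libraries of 75 bp single reads from 3 AdLacZ and 3 AdLmo3 infections were compared. The authors mapped the reads with STAR 2.5.0b to mm10, after bcl2fastq, and deposited raw read counts per gene symbol; their own tests used DESeq2 1.6.3, per the submitters' processing notes. The counting program, annotation and strand setting are not given in the sources used here. The rows for reads in no gene (7.15 to 8.94% of each library) or in several (0.476 to 0.543%) were left out. Groups came from the sample labels.

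The quasi-likelihood test of edgeR 4.0.16 (R 4.3.3) was fitted to the counts without a replicate block, after filterByExpr and TMM scaling and after a check on simulated data. P-values of 12766 genes were adjusted by Benjamini-Hochberg, and adjusted values under 0.05 were called. TMM-normalized CPM and SDs are descriptive. Pattern and spread values used log2(CPM + 0.5). Log2 ratios within libraries were compared by two-sided exact permutation tests. Positions and exon lengths came from GENCODE M21, promoters from RefSeq (GRCm38.p6). Figures used Python 3.11.15 and matplotlib 3.10.9.

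The members and lists were chosen with earlier results of these data known. All members were named, and from the 6 pathway lists every gene called by edgeR and the largest and smallest fitted change of those not called; the genes most like Slc2a1, Ehd2, Slc2a2, Slc2a12, Lpl, Cd36, Myod1 and, under other observations, genes of the oxygen response were named after their values were seen. Alternatives were DESeq2 1.42.0, limma voom 3.58.1, RLE size factors, no filter, the replicate block, thinning to 28035639 counts and leaving out each library. Per-length levels were also computed with the longest transcript, an alternative chosen after seeing the data. Mef2c and other genes with too few reads were not tested, and Slc2a4rg was not found among the symbols. Stxbp3a, another symbol of Stxbp3, was listed too and not found, so the totals of 21 and 88 count symbols.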

Additional observations from a re-analysis of the deposited data

How the results depend on the processing

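The fitted direction of 9 of the 10 members was the same under all 12 alternatives; that of Slc2a1 turned to 0.25 without AdLacZ replicate 2 and ran down to -0.52 without AdLacZ replicate 1. The members called numbered 0 with edgeR but 3 with DESeq2 (Tbc1d4, Lnpep and Sort1), 1 with no count filter (Sort1) and 1 with the replicate block (Lnpep, adjusted p = 0.0393); the cause was not tested. They stayed at 0 with limma voom, RLE size factors, thinning and each library left out. Genes called over the whole table numbered 547 with edgeR, 1110 with DESeq2, and 77 (without AdLacZ replicate 3) to 501 (without AdLmo3 replicate 1) with 1 library left out, where fewer samples entered the fit. Pathway genes called numbered 5, then 9 with DESeq2 (8 higher, 1 lower) and 0 to 2 with 1 library left out. Leaving out 1 library ended the calls of Ralgapa2 and Nr1h3 in 6 of 6 fits, of Sh2b2 in 5 (all but AdLacZ replicate 2), of Pparg in 5 (all but AdLmo3 replicate 1) and of Cebpa in 1 (AdLacZ replicate 3, adjusted p = 0.0601). Thinning ended that of Sh2b2 (adjusted p = 0.0504).

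The difference in the log2 ratio of Slc2a4 to Slc2a1 ran from -0.22 to 0.52 with 1 library left out, and that of Tbc1d4 to Tbc1d1 from 0.19 to 0.28. The replicate block left 498 genes and 5 pathway genes called. Same-numbered libraries of the 2 groups deviated together by correlations of 0.03, 0.18 and 0.18. For AdLacZ libraries 2 and 3 the same-numbered AdLmo3 library correlated best, but AdLacZ library 1 correlated best with AdLmo3 library 3 (0.11). Whether the numbers pair the libraries is not settled by these values. With the longest transcript as the length, Slc2a4 stood at 144 in place of 130 CPM per kb and Vamp2 at 32.1 in place of 25.0, and the order of members in AdLacZ was the same. Depth was no limit for the members, which had 782 counts or more in each library.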

Other observations

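Because the pattern of Slc2a1 was shared with Eno2 and P4ha2, 12 genes known to respond to low oxygen were read in the same libraries; they were chosen after the values of Slc2a1 were seen, and their values are a description. Of these 12, 11 were lowest in AdLacZ library 1, where 17.3% of all tested genes were lowest, and 6 were also highest in AdLacZ library 2, as Slc2a1 was, beside 3.72% of all tested genes. All 12 were higher in AdLacZ library 2 than in AdLacZ library 1, by 1.57 to 4.71 fold, and 3.32% of tested genes were at least 1.5 times higher there. Egln3, a prolyl hydroxylase that is itself induced by low oxygen, read 147, 619 and 448 CPM in the controls and 558, 688 and 381 CPM with AdLmo3. Pgk1, a glycolytic kinase, read 194, 616 and 458 CPM and then 441, 561 and 346 CPM. Their Pearson's r with Slc2a1 over the 6 libraries ran from 0.76 to 0.99. P4ha2 and Adm were already among the 10 genes most like Slc2a1, so these counts and correlations are partly set by the choice of genes. edgeR, DESeq2 and limma voom called 0 of the 12 between the groups, with edgeR adjusted p-values of 0.151 to 0.993. At an unadjusted p under 0.05 in edgeR there was 1 (Ndrg1, 8.33% against 20.6% of all tested genes).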
